A study of Mus musculus with 40 samples.

Results

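The proteasome is the barrel-shaped protease that degrades ubiquitin-tagged proteins. The 45 genes described here were taken by name from the 23480 rows that both expression tables share: every row named Psma, Psmb, Psmc, Psmd, Psme, Psmf or Psmg followed by a number, without the interferon-inducible Psmb8, Psmb9 and Psmb10. The name rule uses no measured value, but the members were chosen with earlier results of these data known. It gave 16 genes of the 20S core (8 alpha and 8 beta), 20 genes named for the 19S cap (6 Psmc and 14 Psmd) and 9 genes of activators, an inhibitor and assembly chaperones. Of the 14 Psmd genes, Psmd5, Psmd9 and Psmd10 encode assembly chaperones and were kept with the assembly factors below, which left 11 non-ATPase subunits of the cap.

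The 20S core is a stack of alpha and beta rings, with the proteolytic sites inside on beta subunits. The 19S cap binds ubiquitin chains, removes them, and unfolds and feeds the substrate with a ring of Psmc ATPases. Other activators (Psme1 to Psme4) can replace the cap, and dedicated chaperones (Psmg1 to Psmg4 for the core; Psmd5, Psmd9 and Psmd10 for the ATPase ring) help to assemble the particle. In mammalian cells, proteasome genes are known to be induced together by the transcription factor NFE2L1 when proteasome activity is short, and carcinoma cells are known to depend on the particle.

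The study asked whether hairpins of the TRC library change transcripts besides their target more than hairpins chosen with the shERWOOD algorithm. All cells were 4T1, a mouse mammary carcinoma line, and each line carried 1 short hairpin RNA, a transcribed stem-loop processed into a small RNA that lowers matching mRNAs. The Slpi table held hairpin 66708 and the shERWOOD hairpins Slpi1U1, Slpi1U2, Slpi2 and Slpi4; the Mgp table held hairpin 88943 and the shERWOOD hairpins Mgp1, Mgp1U1, Mgp1U3 and Mgp2. Hairpins 66708 and 88943 were taken as the TRC hairpins from their catalogue-style names and from puromycin selection at 1 µg/ml, against hygromycin at 500 µg/ml for the other 8, so hairpin source, vector and drug cannot be told apart. Infection was at a multiplicity of 0.3 in all lines, and drug selection lasted about 10 days. The samples analysed here include neither untransduced 4T1 cells nor a control hairpin, so each TRC line was compared with its shERWOOD lines alone. Each hairpin had 2 libraries. The labels do not say that they are separate cultures, and the p-values below then cover only a spread between libraries that may be technical.

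Library depth was 12.2 M to 28.5 M reads (Slpi table) and 12.1 M to 23.3 M reads (Mgp table). The targets were lower in the shERWOOD lines. Slpi had 2734 and 2520 normalised reads in the 66708 libraries against 759 to 1027 in the shERWOOD libraries. Mgp had 264 and 250 in the 88943 libraries against 19.3 to 152. Target level thus differed along with hairpin source, vector and drug and cannot be told apart from them. Each TRC group also holds a single hairpin. Of markers of the 4T1 epithelium, 7 of 7 were detected in every library, with a summed level of 2267 to 2314 CPM (reads of a gene scaled to the library's total) in 66708 against 2015 to 2162 CPM, and 2609 to 2617 CPM in 88943 against 1540 to 1728 CPM. The sum hides opposite changes in 66708, where 4 epithelial markers were called higher and 2 lower in the fits below. Krt7 had 3189 and 3203 normalised reads against 4285 to 5043, and Krt19 had 867 and 752 against 1102 to 1478. In 88943, 7 were called higher. Summed markers of fibroblasts were 41.7 to 41.9 CPM in 66708 against 39.8 to 53.3 CPM. In 88943 they were 54.8 to 57.4 CPM against 24.9 to 34.1 CPM. Nearly all of that was Pdgfra, with Dcn, Lum and Thy1 each at or under 0.725 CPM. Summed leukocyte markers were 3.54 to 4.15 CPM in 66708 against 5.5 to 8.56 CPM, and 7.16 to 7.59 CPM in 88943 against 4.18 to 5.57 CPM, nearly all of it Cd68, and summed endothelial markers stayed under 1 CPM. The part of these markers in the results below was not tested.

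Promoters of the members are shown first, because most members moved in the same direction within a TRC line. RefSeq (GRCm38.p6) gave a window of 250 bases before to 50 after the start site for 37 of the 45 members. The 100 bases before the start site are printed for the 4 members with a window that were lowered most in 88943, with capitals marking CCGGAA, the core recognised by ETS factors, on either strand. Psma6 encodes an alpha subunit (chr12:55384122-55384221, plus strand), Psmd6 a cap subunit (chr14:14120946-14121045, minus strand), Psme3 a nuclear activator (chr11:101316113-101316212, plus strand) and Psmd1 a scaffold subunit of the cap (chr1:86064519-86064618, plus strand).
Psma6: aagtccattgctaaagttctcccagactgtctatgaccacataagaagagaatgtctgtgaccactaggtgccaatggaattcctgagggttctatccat
Psmd6: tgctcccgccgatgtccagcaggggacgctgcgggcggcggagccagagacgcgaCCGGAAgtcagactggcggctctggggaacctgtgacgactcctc
Psme3: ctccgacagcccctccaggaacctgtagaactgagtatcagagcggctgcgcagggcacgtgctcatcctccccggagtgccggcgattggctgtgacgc
Psmd1: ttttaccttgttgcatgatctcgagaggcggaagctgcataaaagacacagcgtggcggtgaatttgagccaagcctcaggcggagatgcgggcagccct

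In these 100-base stretches only that of Psmd6 held the ETS core, starting 45 bases before the start site. Over the whole windows, CCGGAA was found on either strand in 20 of 37 members (54.1%), against 35.5% of the 6925 genes with a window that were tested in both tables and 16.7% of all 27025 genes with a window. It was in the windows of 4 of 5 ATPase genes, 6 of 9 non-ATPase cap genes, 3 of 7 alpha genes and 1 of 5 beta genes. Among activators and the inhibitor it was in 3 of 5 windows, and among assembly factors in 3 of 6. This motif was searched after the values were known, and the antioxidant motif below was also chosen with earlier results known. The shares were not tested.

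The antioxidant response core TGACNNNGC, the element bound by NFE2L1 with small MAF partners, was found on either strand in 6 of 37 members (16.2%), against 17.2% of the tested genes with a window and 14% of all genes with a window. The 6 members were Psmb5, Psmb6, Psmc6, Psmd9, Psmd12 and Psme4. The matches in Psmb5, which encodes the chymotrypsin-like subunit, and in Psmd9 are printed with capitals marking the motif. They lie at chr14:54618014-54618062 (minus strand) and chr5:123228139-123228187 (plus strand), with the motif starting 47 and 31 bases before the start site.
Psmb5: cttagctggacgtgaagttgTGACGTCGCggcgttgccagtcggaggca
Psmd9: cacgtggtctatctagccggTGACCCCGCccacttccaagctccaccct

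A match is a description of these letters and not a binding site. Of the 6 members with a match, Psmb5, Psmb6 and Psmd9 were called higher in 66708 and Psmc6, Psmd12 and Psme4 were not called there. All 6 were called lower in 88943. Of all 43 tested members, 32 were called higher in 66708 and 39 lower in 88943, beside 32.1% and 42% of all genes tested. A link between the motif and the calls was not tested.

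Of the 45 members, 43 passed the minimum for testing in both tables, a mean at least 1 unit above the smallest deposited value. The other 2 are paralogs of other tissues. Psma8, an alpha subunit of testis, had 0 reads in both TRC lines and at most 0.919 normalised reads in a shERWOOD library, and Psmb11, a beta subunit of the thymus, had at most 6.25 normalised reads in any library of the Slpi table and at most 4.88 in the Mgp table. With so few reads no difference was detectable for them at this depth.

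The 43 tested members were well expressed in all 10 lines. Their mean level over the 10 hairpins ran from 3.86 RPKM (CPM per kilobase of exon) for Psmd9 to 187 RPKM for Psmb2, with a median of 38.4 RPKM. Class medians of this level were 60.4 RPKM for beta subunits, 53 for alpha subunits, 44 for non-ATPase cap subunits, 42.2 for ATPases, 26.7 for activators and the inhibitor, and 18.4 for assembly factors. Within a class the range was wide: the alpha genes ran from 11.8 RPKM for Psma3 to 129 RPKM for Psma6. These levels rest on the length used: with the longest transcript of each gene in place of all its exons the median was 56.2 RPKM, the lowest member was Psmf1 (9.83 RPKM), and the alpha median (108 RPKM) lay above the beta median (95.3 RPKM).

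**Figure D1:**
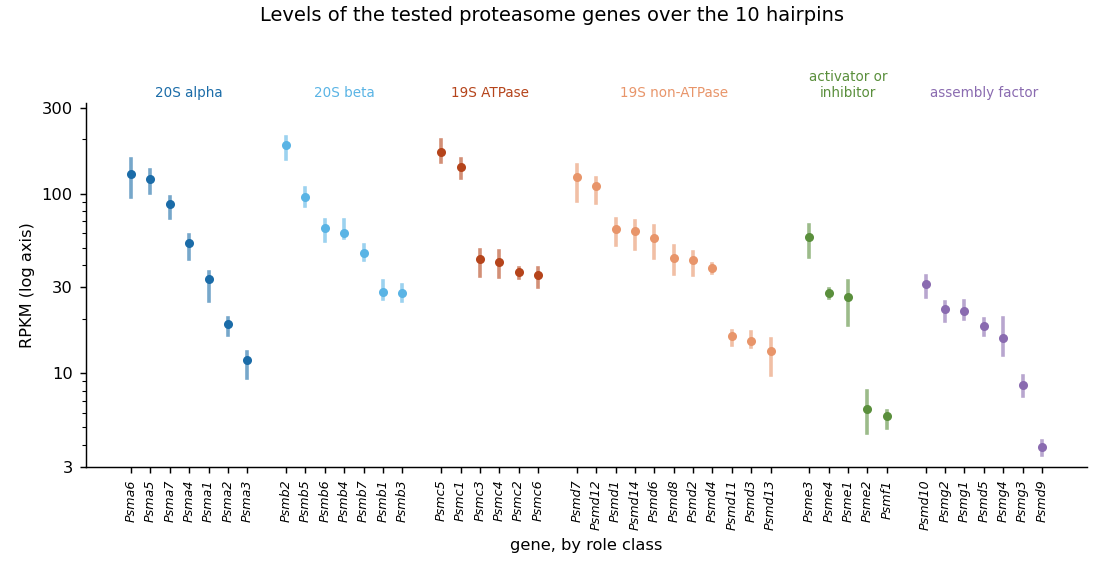
Level of each tested proteasome gene in RPKM on a log axis, ordered by level within its role class; points are means over the 10 hairpins and lines run from the lowest to the highest hairpin mean. Core and cap genes reach the highest levels (187 RPKM for Psmb2), assembly factors the lowest (3.86 RPKM for Psmd9).

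Across the 10 hairpins the levels of a member were close. The highest hairpin mean was 1.12 times the lowest for Psmd4, which encodes a ubiquitin receptor of the cap, and 1.76 times the lowest for Psme1, with a median of 1.31 times over the members. The coefficient of variation over hairpins had a median of 7.97% and was largest for Psme1 at 18.4% and Psme2 at 17.2%, the subunits of the interferon-inducible activator ring. The 88943 line held the lowest CPM of the 10 for 32 of 43 members. The highest CPM was in Mgp1U3 for 13 members, in Mgp2 for 10 and in 66708 for 9. Levels across the tables are relative to each library's total, because the authors normalised the tables separately, and carry no test.

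**Figure D2:**
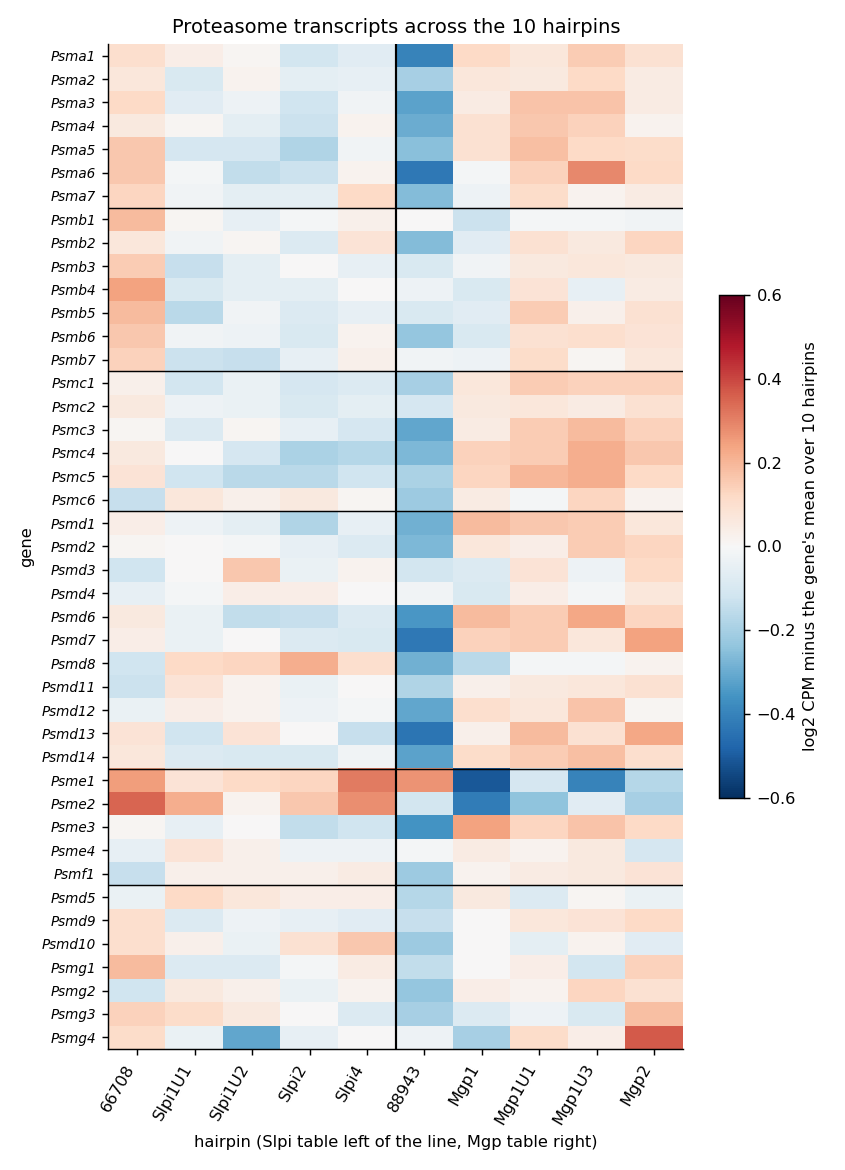
Log2 CPM of each tested proteasome gene (rows, by role class) in each hairpin (columns, mean of 2 libraries) minus the gene's mean over the 10 hairpins. Of 43 members, 41 lie below 0 in 88943 and 10 lie below 0 in 66708; Psme1 has the widest range, with 18.5 RPKM in Mgp1 and 32.5 RPKM in Slpi4.

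Together the 45 members took 0.589% and 0.584% of the reads of 66708, against 0.538% to 0.561% of those of the Slpi shERWOOD lines. They took 0.486% and 0.483% of the reads of 88943, against 0.58% to 0.61% of those of the Mgp shERWOOD lines. Neither pair of groups overlapped. In normalised reads, scaled by the authors' size factors, the sum was 102974 and 101625 in 66708 against 88372 to 93029, and 79328 and 78556 in 88943 against 102770 to 110881. The mean sum was 13.1% higher in 66708 and 26.3% lower in 88943 (a difference of -26.3%) than the mean of the 4 shERWOOD hairpins. In bulk RNA, fewer cells with these transcripts and less of them per cell cannot be told apart.

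**Figure D3:**
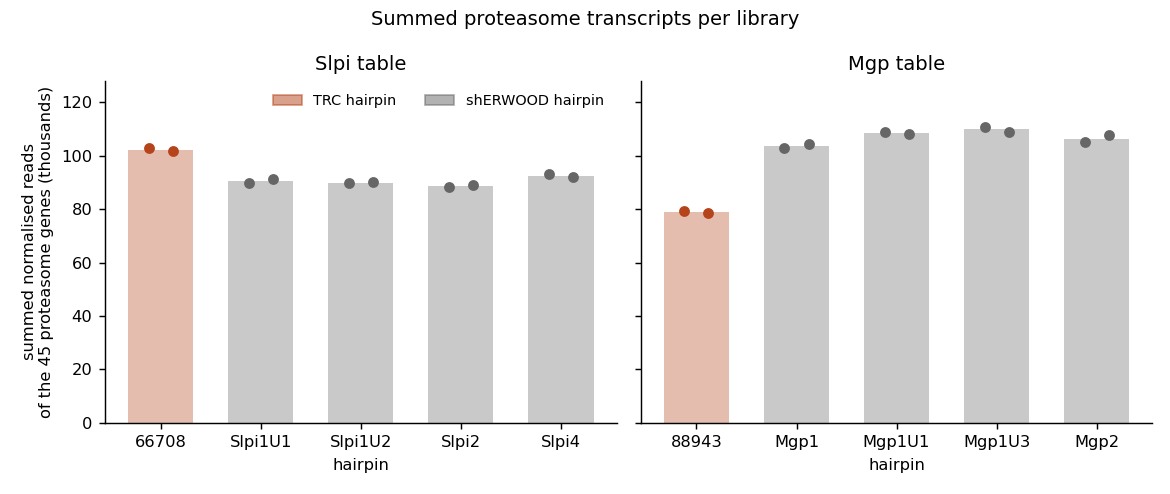
Summed normalised reads of the 45 proteasome genes in each library (points) with the mean of the 2 libraries of each hairpin (bars), TRC hairpins in red and shERWOOD hairpins in grey. Both 66708 libraries lie above and both 88943 libraries lie below all 8 shERWOOD libraries of their table.

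In the 66708 line, 32 of 43 members rose, 1 fell and 10 were not called (limma with an intensity trend, Benjamini-Hochberg adjusted p under 0.05 over all genes tested). Of all 9489 genes tested, 55.7% were called, with 32.1% of the genes tested higher and 23.6% lower. The median difference was 0.15 over the members and 0.02 over all genes, on the deposited log2-like scale. In normalised reads the median change of the members was 15.6%, from -11.2% for Psmd8 to 30.2% for Psmb4. Both 66708 libraries lay above all 8 shERWOOD libraries for 29 members, against 28.3% of all genes, and below them for 1 member, against 20.4%.

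The size of this set of calls depended on the scaling. Normalised library totals were 17.4 M to 17.5 M in 66708 against 16.1 M to 16.6 M in its shERWOOD libraries. With log2(CPM + 1), which sets the totals equal, 20 members were called higher and 6 lower, beside 20.8% and 34.6% of all genes, and the share of all calls that were higher moved to 37.5%, against 57.6% on the deposited scale. The median over the members was then 0.12 and that over all genes -0.05. The 6 members called lower on that scale were Psmc6, Psmd3, Psmd5, Psmd8, Psmd11 and Psmf1. Equal library medians gave 29 members higher and 1 lower, beside 26.8% and 28.6% of all genes, with 48.3% of all calls higher.

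All 14 tested core genes rose in 66708, on the deposited scale. The core is the chamber that holds the protease sites. The beta genes had a median difference of 0.24 and the alpha genes of 0.18. On the log2(CPM + 1) scale, 6 of 7 beta and 5 of 7 alpha genes were called higher and 0 lower, beside 20.8% and 34.6% of all genes. The calls of Psma2, Psma4 and Psmb2 were lost. Psmb4, a structural beta subunit (GRCm38 chr3:94884093-94886961, ENSMUSG00000005779), had 2455 and 2390 normalised reads in 66708, against 1657 to 1995 with a median of 1899 in the shERWOOD libraries. That was 1.3 times the shERWOOD mean, a log2-like difference of 0.32 ± 0.04 (SE; limma adjusted p = 3.087e-05). Psma5, an alpha ring subunit, had 3066 and 3065 in 66708 against 2219 to 2614, median 2392, which was 1.27 times (0.30 ± 0.04, limma adjusted p = 3.255e-05). In both cases the 2 libraries lay above all 8.

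The catalytic subunits rose with the rest of the core in 66708. Psmb5, the chymotrypsin-like subunit, had 1797 and 1599 normalised reads in 66708 against 1204 to 1449, median 1308 (0.28 ± 0.05, limma adjusted p = 1.515e-04). Psmb6, the caspase-like subunit, had 2372 and 2300 in 66708 against 1790 to 2031, median 1926 (0.23 ± 0.04, limma adjusted p = 9.919e-05). Psmb7, the trypsin-like subunit, had 3083 and 3045 in 66708 against 2323 to 2738, median 2484 (0.26 ± 0.03, limma adjusted p = 1.316e-05). None of the 3 overlapped between the groups. Among alpha genes, Psma6 had 2971 and 3181 in 66708 against 2298 to 2788, and Psma7 had 5335 and 4935 against 4096 to 4859. They differed by 0.27 and 0.21 (limma adjusted p = 1.483e-04 and 6.772e-04), and the alpha genes Psma1 to Psma4 by 0.15 to 0.18. Of the other beta genes, Psmb1, Psmb2 and Psmb3 differed by 0.24, 0.14 and 0.22, and Psmb2 overlapped between the groups.

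In the cap of the 66708 line, 5 of 6 ATPases rose and 6 of 11 non-ATPase subunits rose, while 1 fell, beside 32.1% and 23.6% of all genes. These counts with log2(CPM + 1) were 4 higher and 1 lower of the ATPases, and 3 higher and 3 lower of the non-ATPase subunits (median 0.05). Of all genes, 20.8% were higher and 34.6% lower on that scale. Psmc5 (chr11:106256154-106263120, plus strand) had 4393 and 4321 normalised reads in 66708 against 3402 to 3678, median 3519, a difference of 0.27 ± 0.03 (limma adjusted p = 1.220e-05). Psmc4 had 1627 and 1607 against 1258 to 1521, and Psmc1 had 4900 and 4771 against 3991 to 4385, differences of 0.20 and 0.19. Psmc2 and Psmc3 rose by 0.18 and 0.13. Psmc6 was not called, at 1866 and 2031 in 66708 against 1940 to 2234 (-0.08 ± 0.05, limma adjusted p = 0.168). Its groups overlapped, unlike those of the other ATPases.

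Among the non-ATPase subunits of 66708, the largest positive differences were those of Psmd6, Psmd14 and Psmd1. Psmd6 had 2725 and 2965 normalised reads against 2196 to 2540 (0.21). Psmd14, the deubiquitinase of the cap, had 3328 and 3051 against 2616 to 2951 (0.20), and Psmd1 had 8213 and 8272 against 6436 to 7461 (0.20). All 6 libraries lay above their shERWOOD range. Psmd7, Psmd13 and Psmd2 rose by 0.17, 0.15 and 0.12. Psmd8, a lid subunit (chr7:29174188-29180701, minus strand), went the other way, at 2133 and 2174 in 66708 against 2360 to 2610, median 2385, or 0.888 times (-0.14 ± 0.03, limma adjusted p = 0.00159). Psmd3, Psmd4, Psmd11 and Psmd12 overlapped with the shERWOOD libraries, with differences of -0.05, 0.02, -0.04 and 0.04.

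Activators of the 66708 line gave small differences. Psme3 had 2967 and 2916 normalised reads in 66708 against 2485 to 2761, median 2578 (0.15 ± 0.04, limma adjusted p = 0.00221). Psme2 had 238 and 249 against 177 to 234, median 201 (0.12, limma adjusted p = 0.0135), and Psme1 had 1277 and 1134 against 970 to 1307, median 1042 (0.13, limma adjusted p = 0.0396). The call of Psme1 was lost without library 1 of 66708 (0.07), without library 2 of Slpi1U2 or of Slpi2 or library 1 of Slpi4, and under 7 of the other settings tried, and that of Psme2 without either 66708 library (0.10 and 0.13). No activator gene was called higher in 66708 with log2(CPM + 1): the calls of Psme1 (0.09), Psme2 (0.17) and Psme3 (0.09) were all lost. Psme4, the large activator of the nucleus, had 3797 and 4148 against 3697 to 4195 and was not called (0.03), as was the inhibitor Psmf1, with 617 and 567 against 586 to 660 (-0.05).

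Of 7 assembly factors, 4 rose in 66708. Psmg1 had 651 and 533 normalised reads against 422 to 520, median 482 (0.18 ± 0.05, limma adjusted p = 0.00523), and this call was lost without library 1 of 66708 (0.10). Psmg3 had 497 and 453 against 363 to 460 (0.12, limma adjusted p = 0.025). Psmd9 had 522 and 520 against 412 to 457 (0.14, limma adjusted p = 0.00343) and Psmd10 had 835 and 870 against 712 to 865 (0.09, limma adjusted p = 0.0429). Of these 4, Psmg1 and Psmd9 lay wholly above the shERWOOD range. The call of Psmg3 was lost without library 1 of 66708 (0.08), and that of Psmd10 without either library of 66708 or of Slpi4, library 1 of Slpi1U1, or library 2 of Slpi1U2 or of Slpi2 (0.07 to 0.11). Psmg2 had 669 and 604 against 608 to 734, Psmg4 had 165 and 164 against 92.5 to 164, and Psmd5 had 2237 and 2272 against 2212 to 2379; these 3 were not called, with differences of -0.03, 0.11 and -0.02.

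In the 88943 line, 39 of 43 members fell, 1 rose and 3 were not called. Of all 9174 genes tested, 70.7% were called, with 28.7% of the genes tested higher and 42% lower. The median difference was -0.31 over the members and -0.04 over all genes. In normalised reads the median change of the members was -24.7%, from -39% for Psmd7 to 34% for Psme1. Both 88943 libraries lay below all 8 shERWOOD libraries for 37 members, against 36.2% of all genes, and above them for 1 member, against 24.3%. With a minimum of 3 units above the smallest value, 26 of 27 members and 59.3% of all genes were called lower, with medians of -0.41 and -0.15.

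The median of the members in 88943 was below 0 on every scale tried. Normalised totals were 16.3 M in both 88943 libraries against 17.7 M to 18.2 M in the shERWOOD libraries. With log2(CPM + 1), 34 members were called lower and 1 higher, beside 28.7% and 42.3% of all genes. The share of all calls that were higher was then 59.6%, against 40.6% on the deposited scale, and the median over all genes moved to 0.07, while that over the members was -0.27. Equal library medians gave 37 members lower and 1 higher, beside 35.3% and 35.7% of all genes, with 50.3% of all calls higher.

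The median differences were largest in the cap and the alpha ring. All 11 non-ATPase subunits, all 6 ATPases and all 7 tested alpha genes fell in 88943, with median differences of -0.44, -0.42 and -0.42, and 6 of 7 beta genes fell, with a median of -0.19. With log2(CPM + 1), 9 of 11 non-ATPase subunits and 4 of 7 beta genes were called lower, and the 6 ATPases and 7 alpha genes remained called. Of all genes, 28.7% were called lower on that scale. Psmd7, the partner of the cap's deubiquitinase (chr8:107580381-107588464, minus strand, ENSMUSG00000039067), had 3280 and 3433 normalised reads in 88943, against 5043 to 5999 with a median of 5483 in the shERWOOD libraries. That was 0.61 times the shERWOOD mean (-0.64 ± 0.04, limma adjusted p = 4.019e-10). Psmd6 had 2003 and 1987 in 88943 against 2922 to 3359, median 3166 (-0.55 ± 0.03, limma adjusted p = 7.597e-10), and Psmd1 had 6092 and 6131 against 8103 to 9461, median 9179 (-0.53 ± 0.04, limma adjusted p = 7.756e-09). In all 3 both 88943 libraries lay below all 8 shERWOOD libraries. Psmd14 (-0.50), Psmd12 (-0.47), Psmd13 (-0.44), Psmd2 (-0.42), Psmd8 (-0.31), Psmd11 (-0.29) and Psmd3 (-0.19) fell as well.

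All 6 genes of the ATPase ring fell in 88943, with differences from -0.45 to -0.26. Psmc3 had 1488 and 1449 normalised reads against 2005 to 2303, Psmc4 had 1222 and 1182 against 1740 to 1890, and Psmc5 had 3356 and 3418 against 4439 to 5048. They differed by -0.45, -0.44 and -0.43 (limma adjusted p = 2.650e-09, 4.373e-09 and 7.250e-09). Psmc1, Psmc6 and Psmc2 differed by -0.41, -0.32 and -0.26. The smallest difference of the cap was that of Psmd4, with 1709 and 1748 against 1779 to 2074 (-0.13, limma adjusted p = 0.00174). None of the 17 cap subunits overlapped in normalised reads, but the call of Psmd4 was lost with log2(CPM + 1) (-0.03) and with quantile normalisation (-0.02), and that of Psmd3 with log2(CPM + 1) (-0.13).

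In the core of 88943, Psma6 (chr12:55384222-55418454, plus strand, ENSMUSG00000021024) had 1960 and 1870 normalised reads against 2741 to 3531, median 3121, or 0.616 times (-0.58 ± 0.04, limma adjusted p = 1.660e-09). Psma1 had 1250 and 1167 against 1762 to 1978 (-0.49) and Psma4 had 1643 and 1680 against 2220 to 2573 (-0.43). Psma5, Psma7, Psma3 and Psma2 differed by -0.42, -0.38, -0.35 and -0.29. No tested alpha gene overlapped between the groups. The beta genes differed less, the largest difference being that of Psmb2, a structural subunit, with 3057 and 3038 against 3744 to 4538 (-0.39, limma adjusted p = 8.989e-08), and Psmb3 differed by -0.19.

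The 3 catalytic subunits fell in 88943. Psmb6 had 1665 and 1670 normalised reads against 1903 to 2340, median 2280 (-0.32 ± 0.03, limma adjusted p = 3.181e-07). Psmb5 had 1368 and 1242 against 1416 to 1738, median 1626 (-0.21 ± 0.04, limma adjusted p = 9.082e-05), and Psmb7 had 2635 and 2523 against 2660 to 3198, median 2972 (-0.16 ± 0.04, limma adjusted p = 0.00123). All 6 libraries lay below the shERWOOD range, that of Psmb7 by a narrow margin, and its call was lost with quantile normalisation (-0.05), with log2(CPM + 1) (-0.06) and with hairpin means as samples (-0.16). Psmb1 was the tested core gene that was not called, with 2214 and 2039 against 2109 to 2419 (-0.08, limma adjusted p = 0.0592), and Psmb4 overlapped as well, with 1999 and 1760 against 1925 to 2258 (-0.13, limma adjusted p = 0.00783). The call of Psmb4 was lost with equal library medians (-0.09), quantile normalisation (-0.02) and log2(CPM + 1) (-0.03).

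The activators went different ways in 88943. Psme3, the nuclear activator (chr11:101316213-101323537, plus strand, ENSMUSG00000078652), had 2076 and 2177 normalised reads in 88943 against 3108 to 3528, median 3376, or 0.633 times (-0.55 ± 0.03, limma adjusted p = 9.800e-10). Psme1, a subunit of the interferon-inducible activator (chr14:55578123-55581529, plus strand, ENSMUSG00000022216), rose, with 1163 and 1124 against 714 to 1002, median 841, or 1.34 times (0.29 ± 0.04, limma adjusted p = 1.972e-06). Its partner Psme2 had 164 and 166 against 140 to 201, median 170, and was not called (-0.01, limma adjusted p = 0.893). Psme4 had 3731 and 3883 against 3677 to 4615, median 4260 (-0.13, limma adjusted p = 0.00853), and this call was lost without library 1 of 88943 (-0.11) and on 4 other settings. Psmf1 had 546 and 496 against 655 to 733 (-0.24, limma adjusted p = 1.444e-05).

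Of the 7 assembly factors, 6 fell in 88943, with differences from -0.26 to -0.17. Psmg2 had 561 and 539 normalised reads against 697 to 822 (-0.26), Psmg1 had 432 and 441 against 470 to 590 (-0.17), and Psmg3 had 339 and 361 against 385 to 520 (-0.17). For the chaperones of the ATPase ring, Psmd5 had 1883 and 1979 against 2203 to 2532 (-0.23), Psmd10 had 642 and 637 against 754 to 873 (-0.20), and Psmd9 had 434 and 389 against 488 to 583 (-0.19). All 6 lay wholly below the shERWOOD range. Psmg4 had 125 and 153 against 130 to 220 and was not called (-0.09, limma adjusted p = 0.125).

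**Figure D4:**
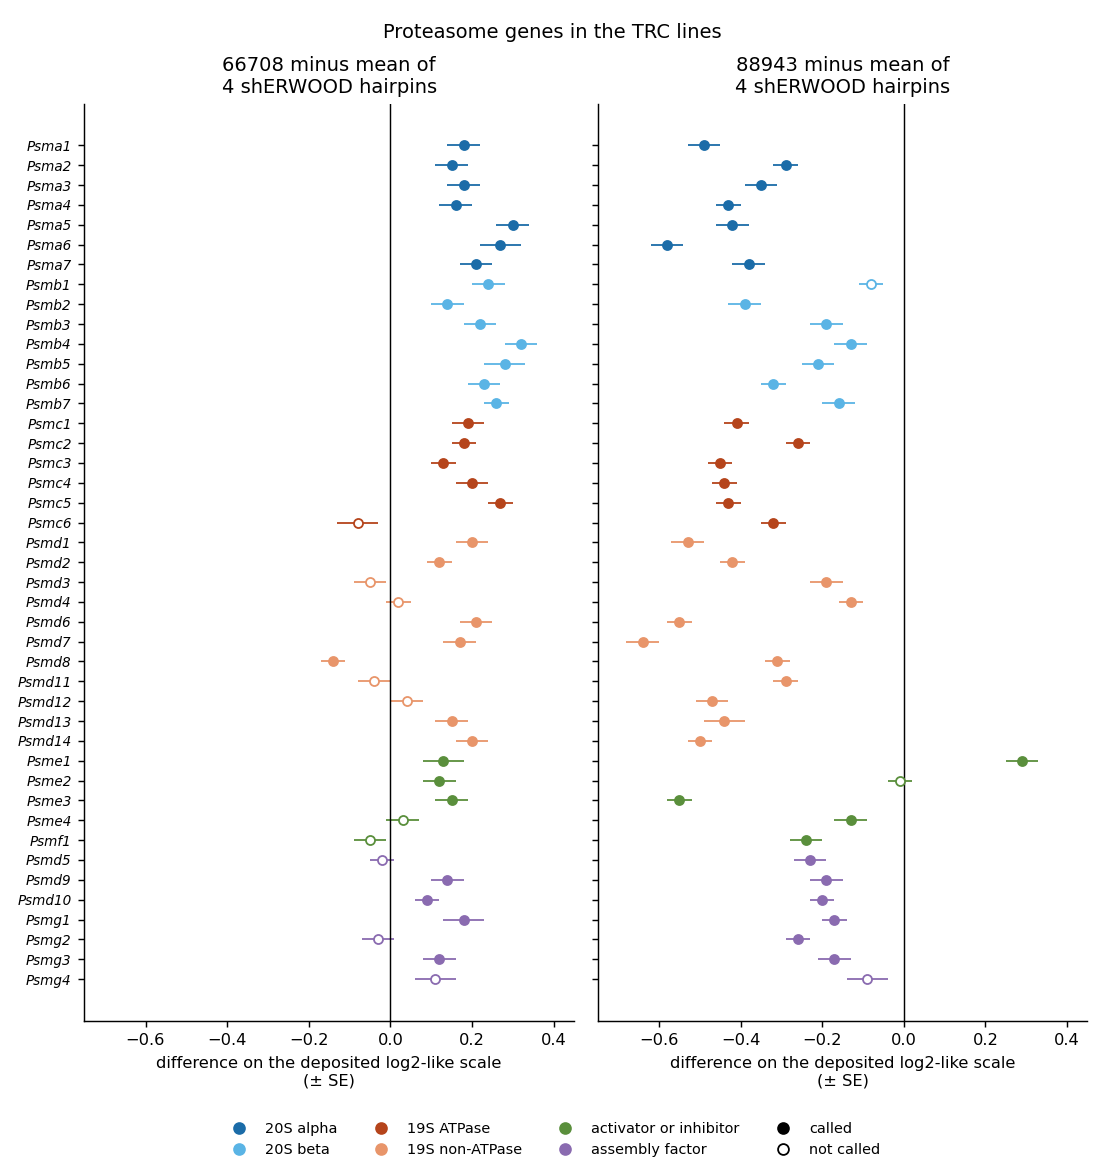
Difference of each tested proteasome gene between the TRC hairpin and the mean of the 4 shERWOOD hairpins of its table on the deposited log2-like scale, with SE bars, 66708 left and 88943 right. Filled points were called at an adjusted p under 0.05 (32 higher and 1 lower in 66708, 1 higher and 39 lower in 88943), open points were not.

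The comparisons share no library, so their calls, each against its own shERWOOD lines, can be set side by side, without a test between the tables. Of the 43 members, 29 (67.4%) were called higher in 66708 and lower in 88943, against 18.4% of the 9144 genes tested in both tables. The opposite pattern was found for 0 members, against 10.6% of all genes. Psme1 was called higher in both lines, a pattern of 6.44% of all genes, and Psmd8 was called lower in both, a pattern of 5.91%. The 66708 call of Psme1 was lost with equal library medians, quantile normalisation, voom and log2(CPM + 1), and that of Psmd8 with hairpin means as samples. With both 66708 libraries above and both 88943 libraries below their 8 shERWOOD libraries, and both calls, 25 members (58.1%) remained, against 13.7% of all genes.

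Genes that work with the proteasome were counted beside the shares over all genes, 32.1% higher and 23.6% lower in 66708 and 28.7% higher and 42% lower in 88943. Of 14 tested proteasome-associated genes, 7 rose and 2 fell in 66708 (median 0.11), and 0 rose and 10 fell in 88943 (median -0.28). Counted with log2(CPM + 1), they were 6 higher and 3 lower in 66708 (median 0.05), beside 20.8% and 34.6% of all genes. In 88943 they were 3 higher and 9 lower on that scale (median -0.25), beside 42.3% and 28.7% of all genes. Pomp, the maturation chaperone of the core, had 4464 and 4081 normalised reads in 66708 against 2945 to 3426 (0.36, limma adjusted p = 7.412e-06), and 2827 and 2632 in 88943 against 3825 to 4418 (-0.53, limma adjusted p = 1.835e-08). Txnl1, a thioredoxin-like protein of the cap, differed by 0.32 in 66708 and by -0.57 in 88943. The deubiquitinase gene Uchl5 was not called in 66708 (-0.01) and fell in 88943 (-0.41). Zfand2a, a stress-inducible zinc finger gene, rose in 66708 (0.40) and was not called in 88943 (-0.05).

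The list around NFE2L1 was mixed. In 66708, 7 of 11 rose and 1 fell (median 0.12), where 32.1% of all genes rose and 23.6% fell. In 88943, 3 rose and 4 fell (median -0.04), where 28.7% of all genes rose and 42% fell. With log2(CPM + 1) the counts were 3 higher and 2 lower in 66708 (median 0.08), beside 20.8% and 34.6% of all genes. The median in 88943 turned to 0.05 on that scale, with 3 higher and 4 lower, beside 42.3% and 28.7% of all genes. Nfe2l1 itself had 4011 and 4061 normalised reads in 66708 against 3226 to 4186 (0.17, limma adjusted p = 0.0032), and 4320 and 4299 in 88943 against 3615 to 3957 (0.17, limma adjusted p = 8.083e-05), so its transcript was called higher in both lines, with overlap between the groups in the Slpi table. Sel1l, an adaptor of degradation at the endoplasmic reticulum, rose in both as well (0.32 in 66708 and 0.16 in 88943). Vcp, the segregase that hands substrates to the proteasome, rose in 66708 (0.23) and fell in 88943 (-0.35). Ngly1, a deglycosylase that processes NFE2L1, rose in 66708 (0.20) and was not called in 88943 (-0.04), and the small MAF genes Mafk and Maff fell in 88943 (-0.30 and -0.23).

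Of 10 genes of Vcp and its cofactors, 4 rose and 0 fell in 66708 (median 0.05), beside 32.1% and 23.6% of all genes. Vcp itself was also counted in the list around NFE2L1. In 88943, 1 rose and 6 fell (median -0.15), beside 28.7% and 42% of all genes. Nploc4 differed by 0.30 in 66708, and Plaa and Ufd1l by -0.49 and -0.27 in 88943. The counts with log2(CPM + 1) were 3 higher and 2 lower in 66708 (median -0.03), beside 20.8% and 34.6% of all genes. In 88943 they were 3 higher and 5 lower on that scale (median -0.04), beside 42.3% and 28.7% of all genes. Ubb, a polyubiquitin gene, rose in 66708 (0.37) and fell in 88943 (-0.22), and Uba6, which encodes a ubiquitin-activating enzyme, was not called in 66708 (-0.04) and fell in 88943 (-0.49). Of the immunoproteasome subunits left out by the name rule, Psmb10 had 734 and 682 normalised reads in 66708 against 391 to 482 (0.40, limma adjusted p = 5.037e-07), and 385 and 363 in 88943 against 347 to 548 (-0.16, limma adjusted p = 8.080e-04). Psmb8 was called in neither line, and Psmb9 was not called in 66708 and not tested in the Mgp table.

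Heat shock chaperones were counted as well. In 66708, 8 of 11 tested chaperone genes rose and 1 fell (median 0.38), beside 32.1% and 23.6% of all genes. In 88943 all 11 fell (median -0.70), beside 42% of all genes. With log2(CPM + 1), 7 were called higher and 2 lower in 66708 (median 0.30), beside 20.8% and 34.6% of all genes. On that scale 0 were called higher and 9 lower in 88943 (median -0.58), beside 42.3% and 28.7% of all genes. With a minimum of 3 units the chaperone median in 66708 was 0.16, beside 0.18 for the members. Hspa1b, an inducible chaperone of the HSP70 family, had 573 and 533 normalised reads in 66708 against 173 to 231 (0.73, limma adjusted p = 3.188e-09), and 246 and 259 in 88943 against 344 to 479 (-0.34, limma adjusted p = 2.560e-07). Dnajb1 and Hspe1 rose by 0.61 and 0.42 in 66708, and Hsph1 and Hspd1 fell by 0.95 and 0.87 in 88943. Hspa8, the constitutive member of the HSP70 family, differed by 0.38 in 66708 and by -0.77 in 88943. Hsp90aa1 was the chaperone gene that fell in both lines (-0.24 in 66708 and -0.70 in 88943). The part of these genes in the proteasome result was not tested.

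Other large complexes were counted in the same fits, where 32.1% of all genes rose and 23.6% fell in 66708, and 28.7% rose and 42% fell in 88943. In 66708, 55 of 75 cytoplasmic ribosomal protein genes rose and 1 fell (median 0.20), 38 of 73 mitochondrial ribosomal protein genes rose and 1 fell (0.12), and 24 of 35 genes of respiratory complex I rose and 0 fell (0.19). The members' median of 0.15 lay among these. In 88943, 14 cytoplasmic ribosomal protein genes rose and 21 fell (-0.05), 1 mitochondrial ribosomal protein gene rose and 54 fell (-0.18), and 3 complex I genes rose and 17 fell (-0.09), while the members' median was -0.31. The direction of the cytoplasmic ribosomal protein genes turned in 88943 with log2(CPM + 1), with 27 higher and 13 lower (median 0.08). Of all genes, 42.3% were then higher and 28.7% lower. On that scale 7 mitochondrial ribosomal protein genes were higher and 39 lower (-0.19), and 7 complex I genes were higher and 10 lower (-0.04). The lists were not tested against each other.

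The shERWOOD lines were also compared with each other. In the Slpi table, each line against the mean of the other 3 gave 0 called members for Slpi1U1, Slpi1U2 and Slpi2, where 1.8%, 1.35% and 3.65% of all genes were called. In those contrasts 3, 6 and 3 members had an unadjusted limma p under 0.05, and limma's voom called 0 in each. Slpi4 had 2 members higher, where 5.74% of all genes were called and 2.74% were called higher: Psma7, with 4859 and 4826 normalised reads in Slpi4 against 4096 to 4513 (0.17, limma adjusted p = 0.0278), and Psmb7, with 2672 and 2738 against 2323 to 2553 (0.13, limma adjusted p = 0.0313). In this contrast 8 members had an unadjusted limma p under 0.05. The share of all genes at this unadjusted threshold was not counted, so these numbers have no background beside them. A test of any difference among the 4 lines called Psmb7 alone (limma F test, adjusted p = 0.0445), where 7.55% of all genes were called. That call was lost in 6 of the 8 fits that left out 1 shERWOOD library, those without either library of Slpi1U2, Slpi2 or Slpi4.

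In the Mgp table, Mgp1 had 7 members lower than in the other 3 shERWOOD lines and 0 higher, where 7.5% of all genes were called and 3.49% were called lower. They were Psma6, Psmb2, Psmb5, Psmb6, Psmd4, Psmd8 and Psme1, and the median over all 43 members was -0.06, with 38 of them below 0. Psme1 had 714 and 732 normalised reads in Mgp1 against 782 to 1002 in the other 6 libraries (-0.20, limma adjusted p = 0.00576), and Psma6 had 2741 and 2825 against 2890 to 3531 (-0.18, limma adjusted p = 0.0134). Both lay below the other 6 libraries.

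Mgp1U3 had 2 members higher (Psma6 at 0.19 and Psmc6 at 0.10), where 15.1% of all genes were called, 7.98% of the genes tested higher. Mgp1U1 had 1 member higher (Psme1 at 0.17), where 5.56% were called, 2.16% higher. Mgp2 had Psmg3 higher (0.13) and Psma4 and Psme4 lower (-0.10 and -0.14), where 17.9% were called, 8.22% higher and 9.69% lower. Psma6 had 3531 and 3436 normalised reads in Mgp1U3 against 2741 to 3226 (limma adjusted p = 0.00496). Psme1 had 944 and 1002 in Mgp1U1 against 714 to 971 (limma adjusted p = 0.0115), which overlapped with Mgp2. Members with an unadjusted limma p under 0.05 numbered 17 for Mgp1, 4 for Mgp1U1, 13 for Mgp1U3 and 10 for Mgp2. The share of all genes at that unadjusted threshold was not counted, and the shares above are of adjusted calls. These contrasts share libraries and are given side by side.

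The F test over the 4 Mgp shERWOOD lines called 6 members, where 29.4% of all genes were called: Psma6, Psmb2, Psmb5, Psmb6, Psmd8 and Psme1. The smallest adjusted p of the F test was that of Psme1 (0.00159), and 18 of 43 members had an unadjusted p under 0.05. The share of all genes with an unadjusted p under 0.05 was not counted. The number of members called ran from 2 to 23 when 1 library was left out. It was 2 and 3 without libraries 1 and 2 of Mgp1, and 3 without either library of Mgp1U1. Without libraries 1 and 2 of Mgp2 it was 12 and 23. The share of all genes called in these fits was not counted, so these numbers have no background beside them. The 2 libraries of Mgp2 differed most of all pairs, with a chi-square of 12.1 per degree of freedom over genes, against 1.57 to 5.99 for the other 9 hairpins.

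Reads of some members can be shared with near copies or overlapping genes. By the GENCODE M21 annotation, 36.1% of the 76-base stretches of the Psmb5 exons also occur in other genes, 34.6% of those of Psma5, 24.3% of those of Psmd9 and 22.7% of those of Psme2, so these 4 values are uncertain. The strand setting of the counting is not given in the sources used here, so reads of an antisense partner cannot be told apart: opposite-strand exons cover 25.5% of the exon bases of Psmd9, 11.8% of Psmb7 (by Nek6), 10.1% of Psmd13 (by Sirt3) and 8.25% of Psmc3 (by Slc39a13).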

How the data were processed

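RNA of 4T1 lines with 10 hairpins was amplified from 100 ng with the NuGEN Ovation V2 system and sequenced as 76 bp reads of fragments of about 200 bp, per the labels' protocols. Although 40 samples are labelled (4 per hairpin), there are 20 deposited columns (2 per hairpin), whose names give the hairpin but no single sample. The authors' deposited values are variance-stabilised and on a log2-like scale; Bowtie2, HTSeq and DESeq and the build mm10 are named in the submitters' processing notes, without versions. Neither annotation nor strand setting is given there. Differences understate fold changes: in the Slpi table a doubling from 1000 normalised reads is 0.77 and one from 10000 is 0.97, and in the Mgp table these are 0.75 and 0.96.

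The transform was inverted, and 100% of values came out as whole reads within 0.001. Normalised reads carry the authors' size factors and were compared within a table only; CPM and RPKM (union exons, GENCODE M21) are relative to library totals. Genes with a mean at least 1 unit above the smallest value (120.7 normalised reads for Slpi, 139.4 for Mgp) were tested with limma 3.58.1 (R 4.3.3) with an intensity trend. The model gave each of the 5 hairpins of a table its own mean, tests were two-sided, and p-values were adjusted over all tested genes (Benjamini-Hochberg). Alternatives were no minimum, a minimum of 3 units, equal library medians, quantile normalisation, voom on the recovered reads, log2(CPM + 1), hairpin means as samples, a replicate block, and each library left out. The fits were tested on simulated data. The members, gene lists and motifs were chosen with earlier results of these data known.

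Values per library are given for the catalytic subunits, activators and assembly factors, for up to 3 called members per class, table and direction with the largest differences, for up to 2 per shERWOOD contrast, and for up to 3 called genes per other list. Counts over the list of ubiquitin and ubiquitin-activating enzyme genes are not reported here.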

Additional observations from a re-analysis of the deposited data

Results flagged for a closer look

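In 4 of 86 groups of 8 shERWOOD libraries (1 group per tested member and table), 1 library stood apart from the other 7 by Dixon's test at the 95% level, which chance alone flags in about 1 of 20 groups. Psmd14 had 2951 normalised reads in library 1 of Slpi4, against 2616 to 2738 in the other 7. Psme1 had 1307 in library 2 of Slpi4, against 970 to 1093. Psmc2 had 3581 in library 2 of Mgp2, against 3346 to 3457, and Psmd1 had 8103 in library 1 of Mgp2, against 9078 to 9461. Without these libraries Psmd14 remained called in 66708, Psmd1 remained called in 88943, and Psme1 was called in 66708.

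Each against its own shERWOOD lines, the TRC lines differed in opposite directions for 25 members, against 13.7% of all genes. For these, both 66708 libraries lay above and both 88943 libraries below the shERWOOD libraries of their table. The shERWOOD lines of the tables also differed. All members together took a mean of 0.587% of the reads in 66708. Means were 0.539% to 0.559% in the Slpi shERWOOD lines and 0.585% to 0.607% in the Mgp shERWOOD lines. The difference between the tables was not tested, because they were normalised separately.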

How the results depend on the processing

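Of the 66708 counts, 32 members higher became 20 with a minimum of 3 units (27 members tested), 20 with log2(CPM + 1) and 20 with hairpin means as samples, and ran from 23 to 33 with 1 library left out. The 1 lower became 3 with quantile normalisation, 6 with log2(CPM + 1) and 0 with hairpin means. Over all genes in 66708, 1083 of 2719 were called higher and 652 lower with a minimum of 3 units. With log2(CPM + 1) 20.8% of all genes were called higher, and with hairpin means 60.2% of all calls were higher. In 88943, 39 members lower ran from 38 to 41 with 1 library left out and from 26 to 40 over the other settings, and the 1 higher became 0 with a minimum of 3 units, which left Psme1 untested. With the column number as a replicate block, 30 were higher and 1 lower in 66708, and 1 higher and 39 lower in 88943. Deviations of same-numbered libraries were correlated at -0.53 to 0.55 over 10 pairs of hairpins in the Slpi table (3 pairs over 0.1). In the Mgp table the correlations ran from -0.17 to 0.28 (4 of 10 pairs over 0.1). Libraries of some hairpins thus shared deviations, but not with 1 sign by number, so the numbers were not taken as pairs. Voom called 1 member in Mgp1U3 and 5 in Mgp2. Equal library medians left 0 members in the F test of the Slpi table, and leaving out 1 library gave 0 to 2 there and 2 to 23 in the Mgp table. The share of all genes called in those F tests was not counted. The median level with the longest transcript as length was 56.2 RPKM. Among the members with values per library, differences that changed sign were not called after the change: Psme4 in 66708 (-0.00 with equal medians, -0.03 with quantile normalisation, -0.06 with log2(CPM + 1), -0.03 to 0.08 with 1 library left out), Psmg2 in 66708 (-0.07 to 0.02 with 1 library left out), Psme2 in 88943 (0.04 with equal medians, 0.11 with log2(CPM + 1), and -0.02 to 0.01 with 1 library left out) and Psme4 in 88943 (0.01 with quantile normalisation). Over all 43 tested members, the other differences that a rescaling turned in sign were those of Psmd4 in 66708 (-0.01 with equal medians, -0.04 with quantile normalisation, -0.07 with log2(CPM + 1)), Psmd12 in 66708 (-0.02 with quantile normalisation, -0.04 with log2(CPM + 1)) and Psmb1 in 88943 (0.04 with either of these), none called after the change. With log2(CPM + 1) the calls of 12 members were lost in 66708 and of 5 in 88943. Where no construction explains a change, the cause was not tested. Psma8 and Psmb11, with few reads, lay below the minimum for testing.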
